A study of Mus musculus with 26 samples.

Results

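EpCAM-negative tumour cells from mice treated with antibodies that deplete CD4 and CD8 T cells were compared with EpCAM-negative tumour cells from mice treated with control IgG. The comparison used the 12 libraries labelled as sorted Her2-positive, EpCAM-negative cells, 6 for each treatment, out of 26 libraries in the series. The other 14 were 12 libraries of EpCAM-positive cells sorted from tumours under the same 2 treatments and 2 of the tumour line in culture. Of 47730 features in the table of read counts, the 16637 that passed a filter on low counts were tested.

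The depleted group (CD4/CD8-depleted, day 20) came from mice injected with 100 µg of anti-CD4 and 100 µg of anti-CD8a antibody, and the control group (IgG control, day 47) from mice injected with 100 µg of rat IgG2a and 100 µg of rat IgG2b. Both were given 2 times per week from 2 weeks before implantation until harvest. All hosts were FVB/N mice of 6 to 8 weeks given E-A14 cells, a Her2-expressing mammary tumour line of the mouse, in the mammary fat pad. Tumours were collected when growth had reached its end-point, which was 20 days after implantation in depleted mice and 47 days after it in control mice. Depletion and day of harvest therefore went together in every library and cannot be told apart in any value given here. Sequencing depth went with them too, as given below. Any other difference in the preparation of the 2 groups could not be told apart either. The labels name 6 mice per treatment and a single tumour line. The spread behind each p-value is that between libraries within groups, which for the tumours come from different mice and which also takes in the 2 cultures. Each library is a bulk measurement, in which fewer cells of a type and less RNA per cell cannot be told apart.

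Carcinoma cells that undergo epithelial-mesenchymal transition (EMT) give up junctions, keratins and EpCAM and take on matrix, protease and motility genes, and the study's design calls the EpCAM-negative fraction mesenchymal. T cells see such cells through MHC class I molecules, which carry peptides made by the proteasome and moved by the TAP transporter to the cell surface. Interferon-gamma, made mainly by T cells and NK cells, acts through IRF1 and other factors to raise class I genes, immunoproteasome subunits and a family of defence GTPases, while type I interferons act through STAT2 and IRF9 on antiviral genes.

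Levels are given in CPM, read counts brought to the same total per library and corrected for composition, as the lowest, median and highest of the 6 libraries of a group. Changes are log2 fold changes of depleted over control cells with their standard error, and a gene was called where its Benjamini-Hochberg adjusted p in edgeR's quasi-likelihood test was under 0.05. Depth differed between the groups without overlap, at 18297292 to 23978966 counts per depleted library and 32467552 to 38740143 per control library. Pairwise correlations of log2 CPM were 0.962 to 0.976 among depleted and 0.972 to 0.98 among control libraries.

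The sort was checked first. Epcam, which encodes the epithelial adhesion molecule of the gate, ran from 40.01 to 284 CPM (median 136) in depleted and from 1.06 to 2.39 CPM (median 1.59) in control libraries (log2 fold change 6.42 ± 0.36, edgeR adjusted p = 1.91e-13). The groups did not overlap, and the depleted libraries differed among themselves: set against the mean of EpCAM-positive cells of the same treatment, Epcam stood at 1.64% in depleted library 2 and at 11.6% in depleted library 1, against 0.0899% to 0.202% over the control libraries. RatActivatedNeu, the rat Neu transgene that encodes the Her2 of this line, ran from 312 to 640.3 CPM (median 454) in depleted and from 463 to 646 CPM (median 586) in control libraries (log2 fold change −0.36 ± 0.15, edgeR adjusted p = 0.0499). The groups overlapped, and this call was lost without any 1 of 10 libraries (control 1, 3, 4, 5 or 6, or depleted 1 to 5), with adjusted p up to 0.126. Mouse Erbb2 had a median of 70.3 CPM (range 63.5 to 80.1) in depleted libraries, against 58.1 CPM (50.1 to 59.9) in control libraries (log2 fold change 0.31 ± 0.09, edgeR adjusted p = 0.00575), and the transgene and Erbb2 share reads, so the split between them is uncertain. With the Epcam share of the EpCAM-positive level taken off each library, Erbb2 was no longer called (log2 fold change 0.2, adjusted p = 0.0802).

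Markers that the sort should exclude were low, but that of CD45 differed. Ptprc, which encodes CD45, had 587 counts over the depleted and 11 over the control libraries, a ratio of CPM of 81.6 with a 95% counting interval of 45.3 to 164. Its highest level was 7.27 CPM in depleted and 0.246 CPM in control libraries, and without control library 1 its log2 fold change was 7.70 in place of 6.30. Eng, which encodes CD105, had 212 and 474 counts and was not called (−0.54), and Thy1, which encodes CD90, had 5 counts in depleted and 0 in control libraries. No library held a count of Cd8a or Ifng, 1 count of Cd3e fell in a control library, and all 7 counts of Cd4 fell in depleted library 1. Because CD45-positive cells were sorted away, these counts do not measure the depletion itself.

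Pan-leukocyte markers summed to 34.4 to 84.7 CPM (median 40.5) in depleted and 4.69 to 12.8 CPM (median 7.15) in control libraries, and 9 of the 10 tested were higher and 1 lower. Macrophage markers summed to 201 to 432 CPM (median 255) in depleted and 153 to 200 CPM (median 183) in control libraries, with 12 of 20 tested higher and 2 lower. The 2 lower were Mertk and Cd163, and 1 was left without any 1 of control libraries 2 to 6 or depleted libraries 3 to 6. Neutrophil markers summed to 11.2 to 24 CPM in depleted and 2.75 to 5.34 CPM in control libraries (4 of 8 higher, 0 lower, or 1 lower without depleted library 6). Erythroid markers summed to 3.11 to 19.4 CPM in depleted and 0 to 0.243 CPM in control libraries (4 of 4 higher). T cell markers, 20 listed and 5 tested, summed to 1.88 to 3.05 CPM in depleted and 7.20 to 18.5 CPM in control libraries and Cd28 was the 1 called lower (2 without control library 4 or depleted library 6). Depleted library 1 had the highest sum of pan-leukocyte, macrophage and neutrophil markers as well as the highest Epcam.

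In total 7501 of 16637 tested genes were called (45.1%). Of these, 3639 genes (21.9% of those tested) were higher in depleted cells and 3862 (23.2%) were lower, while 9136 were not called. Every depleted library stood above every control library for 1722 genes (10.4%) and under every one for 2405 (14.5%). The median change over all tested genes was 0.03. These percentages are the background against which counts of list members should be read. A list's median is over its tested members, and where some members had no count in a group a second median is given with those members at the bound set by 3 counts per library.

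**Figure D1:**
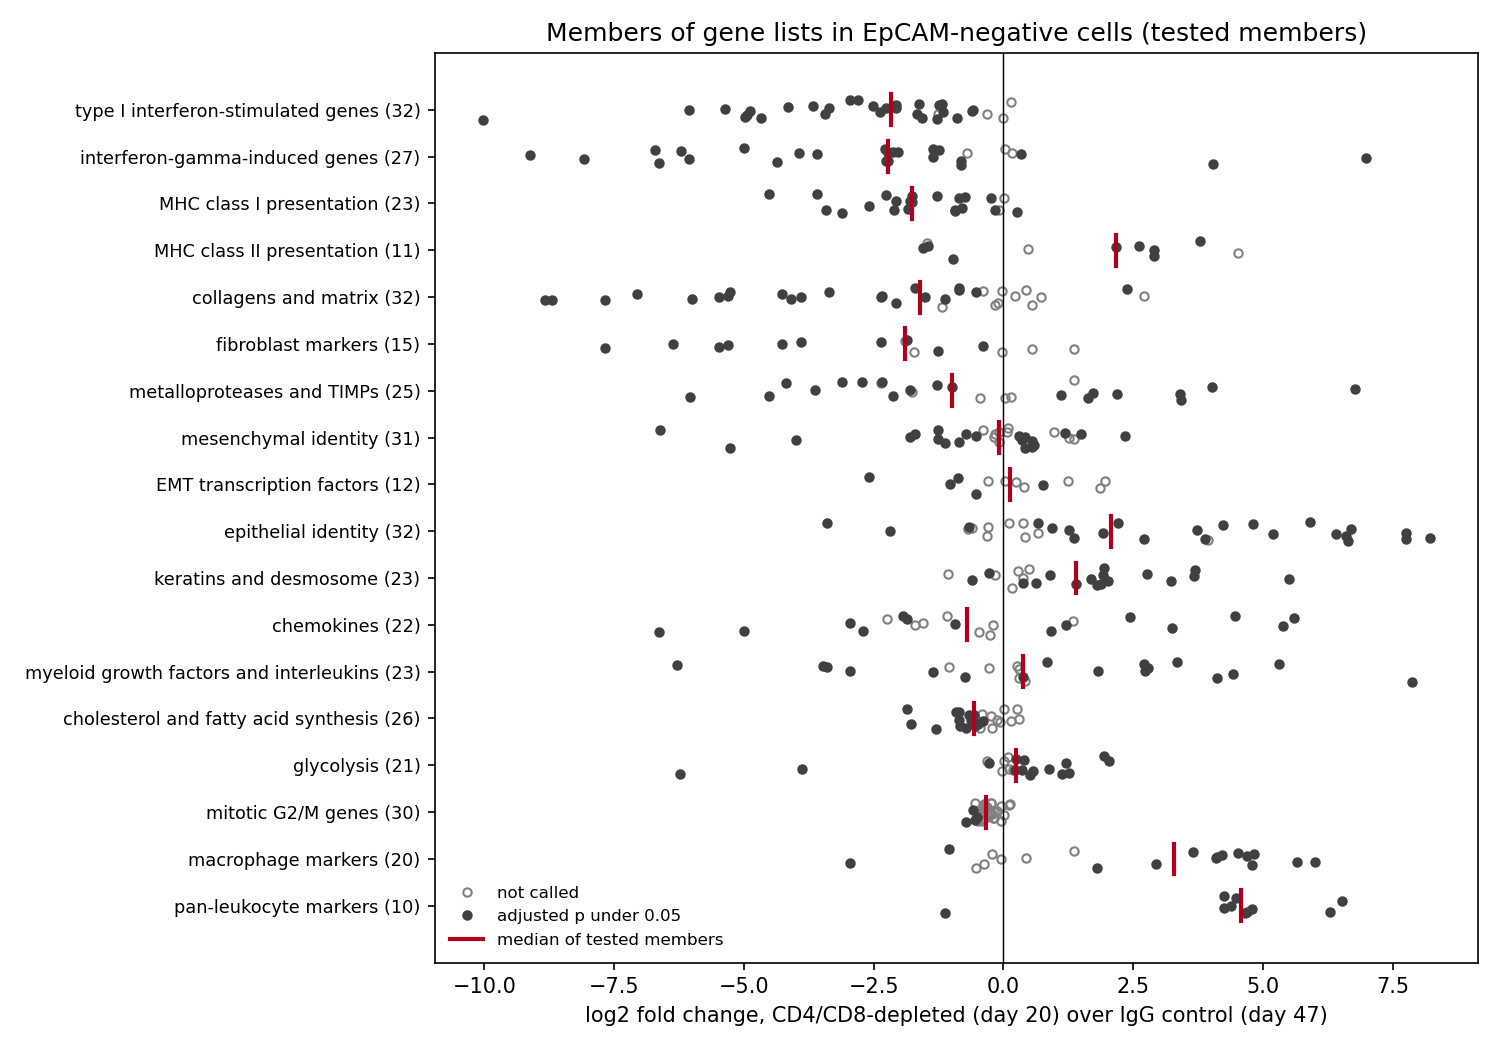
Log2 fold change of depleted over control EpCAM-negative cells (horizontal axis) for the tested members of the gene lists shown, the number tested in parentheses. Filled points passed an adjusted p of 0.05, open points did not, and the red bar is the median. Both interferon lists and class I genes lie mostly left of 0 (medians −2.16, −2.22 and −1.77), and pan-leukocyte markers lie mostly right of it (median 4.57).

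Genes of antigen presentation on MHC class I were lower in depleted cells. Of 23 class I genes, all tested, 20 were called lower, 1 higher and 2 were not called, with a median of −1.77. For 19 of them the groups did not overlap. The heavy chain H2-K1 ran from 200.2 to 267 CPM (median 227) in depleted and from 816 to 1552 CPM (median 1088) in control libraries (log2 fold change −2.26 ± 0.17, edgeR adjusted p = 7.44e-11). The light chain B2m had a median of 354 CPM (range 269 to 384) in depleted libraries, against 1337 CPM (1187 to 2005) in control libraries (log2 fold change −2.11 ± 0.19, edgeR adjusted p = 9.85e-10). Both genes were lower in every depleted library than in any control library, by factors of 4.80 and 4.32 in the mean. The immunoproteasome subunit Psmb8 ran from 9.27 to 15.6 CPM (median 13.4) in depleted and from 80.9 to 158 CPM (median 113) in control libraries (log2 fold change −3.12 ± 0.21, edgeR adjusted p = 4.75e-12). Tap1, a subunit of the peptide transporter, had a median of 21.1 CPM (range 13.3 to 23.03) in depleted libraries, against 67.9 CPM (57.8 to 109) in control libraries (log2 fold change −1.85 ± 0.16, edgeR adjusted p = 3.47e-10). Tapbp, which encodes the tapasin that bridges the transporter and class I, had a median of 312 CPM (range 299 to 352) in depleted libraries, against 608 CPM (559 to 639) in control libraries (log2 fold change −0.93 ± 0.07, edgeR adjusted p = 3.51e-11). The size of the change thus varied along the pathway, with Psmb8 changing by more than 3 and Tapbp by less than 1 on the log2 scale. Nlrc5, the transcriptional activator of class I genes, ran from 0 to 2.42 CPM (median 0.378) in depleted and from 7.52 to 30.1 CPM (median 15.4) in control libraries (log2 fold change −4.51 ± 0.75, edgeR adjusted p = 1.93e-05). The groups did not overlap, and without depleted library 5 its change was −5.36. Other class I chains were lower as well, among them H2-D1 (−1.77), H2-T23 (−1.80) and H2-Q7 (−3.59). The H2 genes share reads, and the H2 haplotype of FVB/N differs from that of the reference genome, so their single values are uncertain. The 3 members that did not fall were the proteasome activator Psme1 (log2 fold change 0.26, called higher), its partner Psme2 (−0.08) and the chaperone Canx (0.01), named after their values were seen.

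Genes induced by interferon-gamma were lower with few exceptions. Of 30 listed genes 27 were tested, of which 21 were called lower, 3 higher and 3 were not called, with a median of −2.22 (−2.13 with 3 members at their bound). The transcription factor Irf1 ran from 72.6 to 101 CPM (median 85.6) in depleted and from 157 to 338 CPM (median 209) in control libraries (log2 fold change −1.35 ± 0.16, edgeR adjusted p = 1.26e-07). Its groups did not overlap. Among the defence GTPases, Irgm1 had a median of 20.2 CPM (range 16.8 to 22.5) in depleted libraries, against 87.5 CPM (76.7 to 121) in control libraries (log2 fold change −2.22 ± 0.18, edgeR adjusted p = 1.1e-10). Ifi47 had a median of 0.643 CPM (range 0 to 1.405) in depleted libraries, against 54.9 CPM (36.4 to 61.5) in control libraries (log2 fold change −6.22 ± 0.47, edgeR adjusted p = 4.7e-11), and Iigp1 had a median of 0.178 CPM (range 0 to 2.11) in depleted libraries, against 115 CPM (75.8 to 207) in control libraries (log2 fold change −8.07 ± 0.62, edgeR adjusted p = 7.39e-11). For both of these the depleted libraries were at or close to 0, and Iigp1 was at −9.73 without depleted library 6, which held the most of it. The T cell chemokine Cxcl10 had 8 counts in depleted and 423 in control libraries, a CPM ratio of control over depleted of 34.6 (95% counting interval 17.4 to 80.6). Cxcl9, another T cell chemokine, had 0 counts in depleted and 84 in control libraries, at least 3.17-fold lower against 3 counts per library. Single libraries moved both fitted log2 values, to −6.57 for Cxcl10 without depleted library 6 and to −5.86 in place of −6.63 for Cxcl9 without control library 1. The 3 called higher were the adhesion molecule Icam1 (mean of 0.579 CPM in depleted and 0 CPM in control libraries), the myeloid factor Irf8 (4.04) and the tRNA synthetase Wars (0.34), and those not called were Gbp9, Ifngr1 and Cd274. Cd274, which encodes the checkpoint ligand PD-L1, had a median of 1.41 CPM (range 0.301 to 2.14) in depleted libraries, against 1.18 CPM (0 to 2.37) in control libraries (log2 fold change 0.17 ± 0.64, edgeR adjusted p = 0.851), and its groups overlapped widely.

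Stretches before the start of 4 of these genes are shown because they hold letters that match the consensus of interferon-gamma-activated sites (TTCNNNGAA) or of sites bound by interferon regulatory factors (GAAANNGAAA). They are the 150 bases before the gene start in RefSeq, build GRCm38.p6, 5′ to 3′ on the strand of the gene, with matches in capitals. Irf1 lies at chr11:53769864-53770013 on the plus strand, Psmb8 at chr17:34198045-34198194 on the plus strand, B2m at chr2:122147537-122147686 on the plus strand and Irgm1 at chr11:48871421-48871570 on the minus strand.
Irf1: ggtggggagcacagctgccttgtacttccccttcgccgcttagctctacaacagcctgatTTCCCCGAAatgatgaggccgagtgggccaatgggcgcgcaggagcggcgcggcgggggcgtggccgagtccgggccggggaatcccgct
Psmb8: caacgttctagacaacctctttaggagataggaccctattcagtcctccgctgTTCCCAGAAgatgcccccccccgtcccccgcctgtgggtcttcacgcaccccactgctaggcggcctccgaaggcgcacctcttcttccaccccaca
B2m: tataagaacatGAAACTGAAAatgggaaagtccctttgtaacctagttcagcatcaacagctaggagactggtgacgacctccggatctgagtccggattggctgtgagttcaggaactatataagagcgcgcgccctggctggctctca
Irgm1: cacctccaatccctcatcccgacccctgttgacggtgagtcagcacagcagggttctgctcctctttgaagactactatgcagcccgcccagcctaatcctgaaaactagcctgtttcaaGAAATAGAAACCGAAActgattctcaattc

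The matches start 90 bases before the start of Irf1, 97 before that of Psmb8 and 139 before that of B2m. Irgm1 has 2 overlapping matches, which start 30 and 24 bases before its start. Both patterns were searched on both strands in 250 bases before the start, which for 27025 genes gave TTCNNNGAA in 8.13%, GAAANNGAAA in 3.46% and either in 11.1%. Of the class I genes 20 had such a window, and 2 held the first pattern, 3 the second and 5 either. Of the interferon-gamma list 19 had one, and 9, 11 and 14 held them. Of the type I list 22 had one, and 4, 10 and 12 held them. A match describes the letters of this window and was not tested as a binding site.

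Antiviral genes of the type I interferon response were lower without a single call upwards. All 32 listed genes were tested, and 28 were called lower, 0 higher and 4 were not called, with a median of −2.16. For 26 of them no depleted library reached a control library. Rtp4 ran from 0.1 to 0.871 CPM (median 0.601) in depleted and from 26.8 to 45.6 CPM (median 35.3) in control libraries (log2 fold change −6.07 ± 0.34, edgeR adjusted p = 1.85e-13). Usp18, the protease that removes ISG15 from proteins and dampens the interferon receptor, had a median of 0.955 CPM (range 0.477 to 1.44) in depleted libraries, against 12.7 CPM (8.62 to 14.8) in control libraries (log2 fold change −3.66 ± 0.24, edgeR adjusted p = 4.38e-12). Ifit2, which binds foreign RNA, had a median of 6.18 CPM (range 5.00 to 10.04) in depleted libraries, against 34.1 CPM (30.5 to 39.6) in control libraries (log2 fold change −2.38 ± 0.18, edgeR adjusted p = 5.81e-11). Isg15 itself (−2.96), Irf7 (−2.25), Stat2 (−1.62) and Irf9 (−1.24) were called lower too. The 4 without a call were Mx1 (log2 fold change −1.26), Oasl1 (−0.31), Eif2ak2 (0.00) and Parp14 (0.14).

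**Figure D2:**
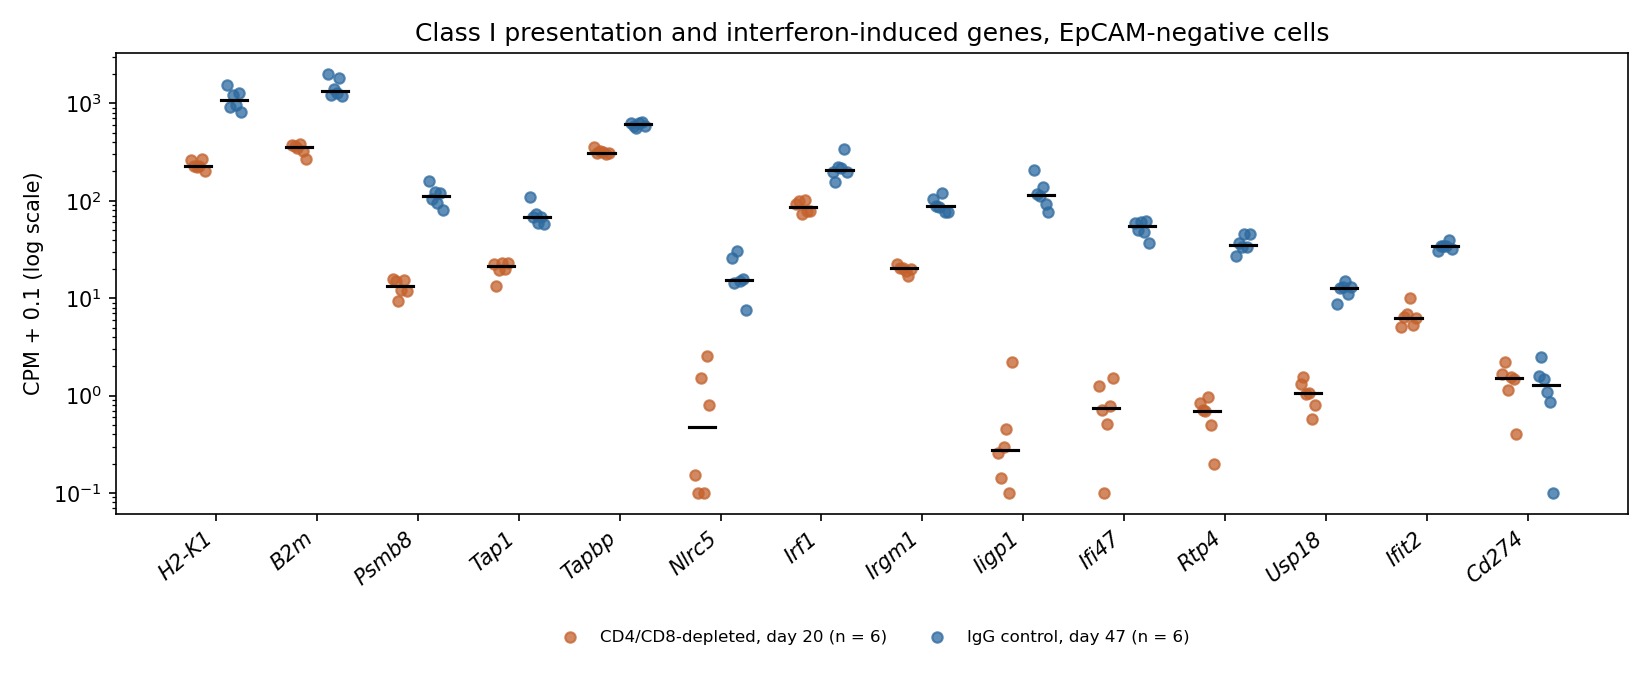
CPM + 0.1 on a log scale (vertical axis) of 14 class I and interferon-induced genes in each EpCAM-negative library, depleted (day 20, n = 6) left and control (day 47, n = 6) right of each gene, with the median as a bar. Depleted libraries lie under all control libraries for every gene shown except Cd274, whose groups overlap.

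Genes of MHC class II, whose products show peptides to CD4 T cells and are found chiefly on professional antigen-presenting cells, were more often called higher than lower. Of 12 listed 11 were tested, and 5 were called higher, 3 lower and 3 were not called (median 2.16, or 0.47 with the 1 member without a count in control cells at its bound). The invariant chain Cd74 ran from 40.5 to 121 CPM (median 55.04) in depleted and from 3.44 to 18.1 CPM (median 7.55) in control libraries (log2 fold change 2.91 ± 0.55, edgeR adjusted p = 0.000101). H2-Ab1 ran from 16.6 to 58.9 CPM (median 26.9) in depleted and from 1.19 to 11.5 CPM (median 2.64) in control libraries (log2 fold change 2.90 ± 0.54, edgeR adjusted p = 8.44e-05), and without control library 1, which held more of it than any other control library, its change was 3.53. Ctss, the protease that trims the invariant chain, had a median of 14.7 CPM (range 10.3 to 42.8) in depleted libraries, against 1.402 CPM (1.02 to 1.94) in control libraries (log2 fold change 3.79 ± 0.48, edgeR adjusted p = 3.61e-07). For these 3 genes every depleted library exceeded every control library. Depleted library 1, with the most Cd74, also had the largest sum of leukocyte markers. H2-Aa (2.62) and H2-Eb1 (2.16) completed the 5, while H2-DMb1 (−1.46), H2-DMb2 (−0.98) and Lgmn (−1.56) were called lower and the class II activator Ciita was at −1.46 without a call. Pan-leukocyte markers were 34.4 to 84.7 CPM in depleted and 4.69 to 12.8 CPM in control libraries, and their part in the class II values was not tested.

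Most extracellular matrix genes were lower in depleted cells. All 32 listed genes were tested, and 21 were called lower, 1 higher (Col7a1, 2.38, or 2 without control library 2 or 6 or depleted library 2) and 10 were not called, with a median of −1.61. Decorin, a small proteoglycan that binds collagen (Dcn), ran from 3.65 to 8.68 CPM (median 6.47) in depleted and from 519 to 1997 CPM (median 1282) in control libraries (log2 fold change −7.67 ± 0.47, edgeR adjusted p = 1.36e-12). Col1a1, a chain of the main fibrillar collagen, ran from 9.77 to 57.7 CPM (median 35.6) in depleted and from 448 to 2462 CPM (median 1663) in control libraries (log2 fold change −5.47 ± 0.43, edgeR adjusted p = 1e-10). In both, a gap of several fold separated the highest depleted from the lowest control library. Postn, the matricellular protein periostin, had a median of 15.1 CPM (range 12.1 to 20.9) in depleted libraries, against 574 CPM (409 to 956) in control libraries (log2 fold change −5.27 ± 0.24, edgeR adjusted p = 5.36e-15), and Col8a1, a short-chain collagen, had a median of 14.5 CPM (range 10.4 to 22.4) in depleted libraries, against 1069 CPM (527 to 1278) in control libraries (log2 fold change −6.00 ± 0.28, edgeR adjusted p = 1.22e-14, or −6.83 with the Epcam share taken off). Sparc had a median of 890.5 CPM (range 779 to 1069.9) in depleted libraries, against 2949 CPM (2386 to 3178) in control libraries (log2 fold change −1.70 ± 0.11, edgeR adjusted p = 5.61e-12), and fibronectin (Fn1) had a median of 13162 CPM (range 10250.2 to 17618) in depleted libraries, against 23100.1 CPM (17572 to 33622) in control libraries (log2 fold change −0.86 ± 0.16, edgeR adjusted p = 6.23e-05). The abundant genes Sparc and Fn1 thus changed by 1.70 and 0.86 on the log2 scale where Dcn changed by more than 7. Col1a2, which encodes the partner chain of Col1a1, was not called (0.55), nor were Col4a1 (0.22) and Col4a2 (−0.02) of the basement membrane, and these were named after their values were seen. Pdgfrb, a receptor of platelet-derived growth factor carried by pericytes, fibroblasts and some mesenchymal tumour cells, ran from 5.85 to 16.4 CPM (median 10.8) in depleted and from 568 to 1533 CPM (median 1113) in control libraries (log2 fold change −6.61 ± 0.28, edgeR adjusted p = 1.61e-15). Its groups did not overlap.

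Markers of fibroblasts moved with these genes. Of 18 listed 15 were tested, of which 10 were called lower, 0 higher (1 without control library 6) and 5 were not called, with a median of −1.90. Their summed level was 1385 to 1844 CPM (median 1656) in depleted and 3008 to 7066 CPM (median 5353) in control libraries. Dcn, Col1a1, Col1a2, Col3a1, Lum and Fbln1 stand in both lists. Pi16 and Clec3b, which mark normal fibroblasts, fell as well, Pi16 with a mean of 0.104 CPM in depleted and 8.44 CPM in control libraries and Clec3b with a mean of 0.11 CPM in depleted and 2.12 CPM in control libraries, and Col1a2, Gsn and Cd34 had no call. Thy1, whose product the sort excluded, had 5 counts in depleted and 0 in control libraries. What part other cells had in the matrix values was not tested.

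Proteases were divided. Of 25 metalloproteases and their inhibitors, all tested, 11 were called lower, 8 higher and 6 were not called (median −0.99). Mmp3, the protease stromelysin that degrades matrix, ran from 164 to 225 CPM (median 194) in depleted and from 776 to 3937 CPM (median 2394) in control libraries (log2 fold change −3.63 ± 0.27, edgeR adjusted p = 2.85e-11). Mmp14, the membrane protease that activates MMP2, had a median of 441 CPM (range 394 to 498) in depleted libraries, against 1531 CPM (1448 to 1713) in control libraries (log2 fold change −1.80 ± 0.08, edgeR adjusted p = 2.34e-15). Adamts1, which cleaves proteoglycans, had a median of 15.6 CPM (range 13.5 to 31.9) in depleted libraries, against 1130.4 CPM (699 to 1627) in control libraries (log2 fold change −6.04 ± 0.29, edgeR adjusted p = 1.71e-14), and Timp3, an inhibitor of these enzymes, had a median of 144 CPM (range 111 to 180.0) in depleted libraries, against 727 CPM (559 to 883) in control libraries (log2 fold change −2.33 ± 0.14, edgeR adjusted p = 8.89e-13). None of these 4 had overlapping groups, and the change of Mmp3 was −4.24 with the Epcam share taken off. In the other direction, Mmp9, a gelatinase, ran from 12.7 to 31.2 CPM (median 18.5) in depleted and from 0 to 0.362 CPM (median 0.156) in control libraries (log2 fold change 6.77 ± 0.54, edgeR adjusted p = 1.2e-10). The Epcam share came to 3.32 to 23.6 CPM of Mmp9 in depleted libraries, a range that overlaps the measured one, and with it taken off the change was 5.59. Mmp12 (3.41) and Adam8 (2.18), both also made by macrophages and other myeloid cells, Adam12 (1.72) and Mmp11 (1.10) were higher too.

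The TGF-beta pathway, which drives matrix production and EMT in many epithelia, went both ways. Of 28 members, all tested, 11 were called higher, 12 lower and 5 were not called (median 0.03). Ltbp1, which stores latent TGF-beta in the matrix, ran from 538 to 713 CPM (median 687) in depleted and from 85.5 to 224 CPM (median 143) in control libraries (log2 fold change 2.23 ± 0.17, edgeR adjusted p = 7.56e-11). The signal transducer Smad3 had a median of 185 CPM (range 159 to 259.9) in depleted libraries, against 77.8 CPM (69.2 to 93.2) in control libraries (log2 fold change 1.31 ± 0.12, edgeR adjusted p = 1.32e-09). On the lower side, the receptor Tgfbr2 had a median of 244 CPM (range 222 to 284) in depleted libraries, against 579.9 CPM (440.0 to 778) in control libraries (log2 fold change −1.28 ± 0.11, edgeR adjusted p = 8.3e-10), and the target gene Ccn2 had a median of 132 CPM (range 82.3 to 206) in depleted libraries, against 649 CPM (388 to 763) in control libraries (log2 fold change −2.19 ± 0.21, edgeR adjusted p = 4.54e-09). For none of these 4 did the groups overlap. Of the ligands, Tgfb2 (−4.51) and Tgfb3 (−1.05) were lower and Tgfb1 was not called (−0.01). Bmp7, a ligand of the related BMP branch, was among the largest changes of all and ran from 189 to 278 CPM (median 213) in depleted and from 0.0696 to 0.974 CPM (median 0.159) in control libraries (log2 fold change 9.41 ± 0.38, edgeR adjusted p = 1.04e-15, or 10.26 without control library 2).

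**Figure D3:**
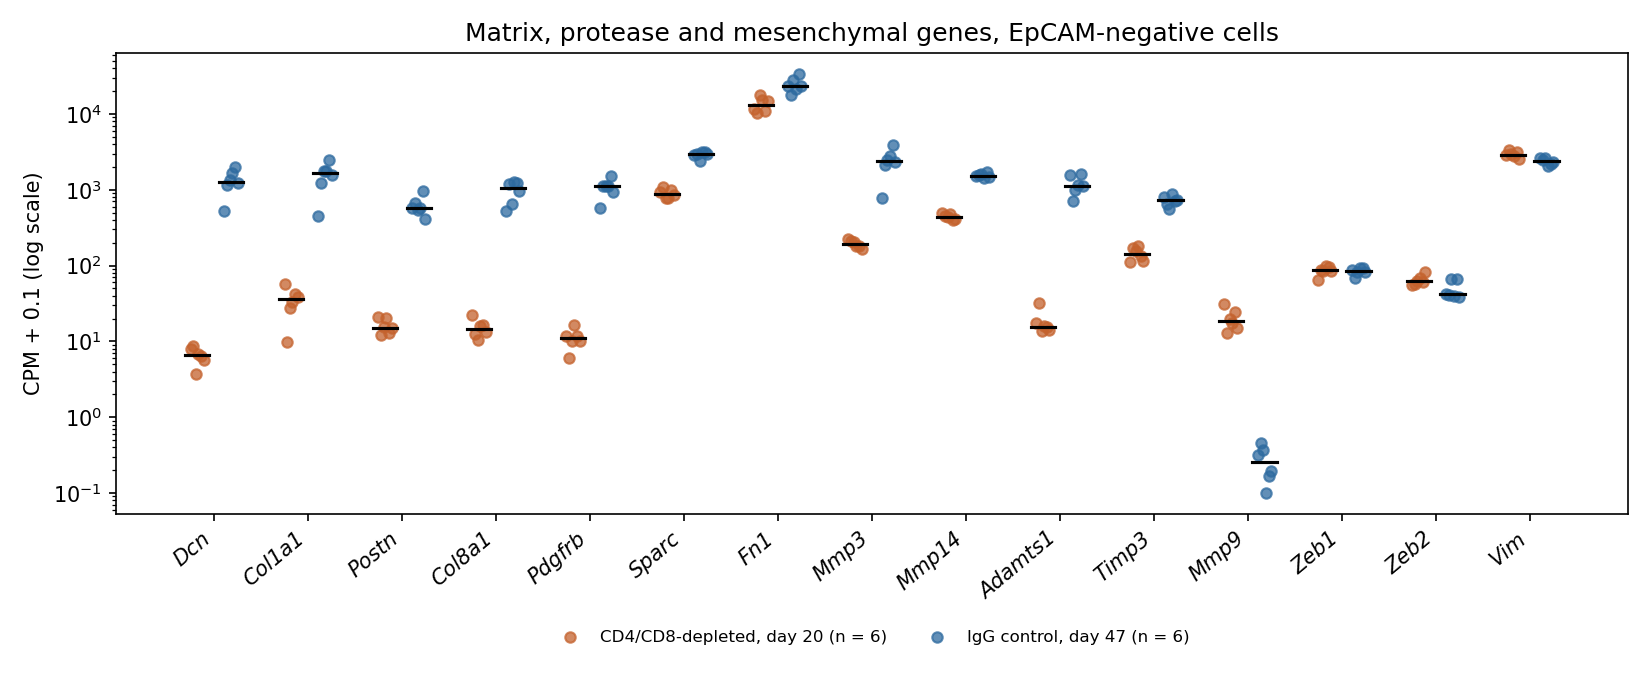
CPM + 0.1 on a log scale (vertical axis) of 15 matrix, protease and mesenchymal genes in each EpCAM-negative library, depleted (day 20, n = 6) left and control (day 47, n = 6) right of each gene, with the median as a bar. Dcn, Col1a1, Postn, Col8a1, Pdgfrb and Adamts1 are far lower in depleted libraries, Mmp9 is higher, and Zeb1 shows no separation.

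Epithelial genes were more often higher than lower in depleted cells. Of 32 epithelial genes, all tested, 20 were called higher, 3 lower and 9 were not called, with a median of 2.07 (1.64 with 3 members at their bound). F11r, a tight junction adhesion molecule, ran from 248 to 265 CPM (median 257) in depleted and from 76.8 to 147 CPM (median 94.2) in control libraries (log2 fold change 1.36 ± 0.10, edgeR adjusted p = 6.34e-11). The tight junction claudin Cldn7 ran from 19.98 to 57.5 CPM (median 32.05) in depleted and from 3.48 to 7.85 CPM (median 5.22) in control libraries (log2 fold change 2.70 ± 0.25, edgeR adjusted p = 2.29e-09). Both were higher in every depleted library than in any control library. Cdh1, which encodes E-cadherin, ran from 46.4 to 138 CPM (median 89.9) in depleted and from 82.4 to 187 CPM (median 136) in control libraries (log2 fold change −0.66 ± 0.19, edgeR adjusted p = 0.00553), with groups that overlapped. The other 2 called lower, the epithelial transcription factors Ehf (−3.39, or −5.37 with the Epcam share taken off) and Grhl1 (−2.18), were named after their values were seen.

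Since Epcam itself differed, the level that RNA of EpCAM-positive cells would give at the Epcam share of each library was computed. For Cldn7 that level was 5.09 to 36.1 CPM in depleted libraries, a range that overlaps the measured one. For Cdh1 it was 17.2 to 122 CPM, and for F11r 7.05 to 50.02 CPM, far under the level of F11r that was measured. With these shares taken off the counts, 16 epithelial genes were called higher and 12 lower (median 1.57), against 20 and 3 with the counts as deposited. The change of Cdh1 was then −2.18 (adjusted p = 4.97e-11), that of Cldn7 1.83 and that of F11r 1.30. These shares presume that all Epcam RNA of a library came from EpCAM-positive cells, and no counts were left where the share exceeded them. Epcam RNA made by the EpCAM-negative cells themselves would give the same shares. How much of the epithelial RNA came from EpCAM-positive cells was therefore not tested.

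Keratins and desmosomal genes had 15 of 23 tested members called higher, 2 lower (Dsp, −0.61, and Jup, −0.27) and 6 not called (median 1.41). Krt8 and Krt18, the paired keratins of simple epithelia, were the most abundant of those that rose. Krt8 ran from 1464 to 1938 CPM (median 1808) in depleted and from 339 to 575 CPM (median 510.5) in control libraries (log2 fold change 1.88 ± 0.13, edgeR adjusted p = 5.25e-12) and Krt18 had a median of 2199 CPM (range 1706 to 2414) in depleted libraries, against 589 CPM (382 to 734) in control libraries (log2 fold change 1.92 ± 0.12, edgeR adjusted p = 2.57e-12). The basal keratin Krt14 had a median of 467 CPM (range 378 to 609.8) in depleted libraries, against 154 CPM (84.9 to 203) in control libraries (log2 fold change 1.69 ± 0.15, edgeR adjusted p = 1.2e-09). None of the 3 had overlapping groups, and the Epcam share came to 32.6 to 231 CPM of Krt8, 53.3 to 378 CPM of Krt18 and 24.99 to 177 CPM of Krt14. With the shares taken off, 14 members were called higher and 4 lower.

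**Figure D4:**
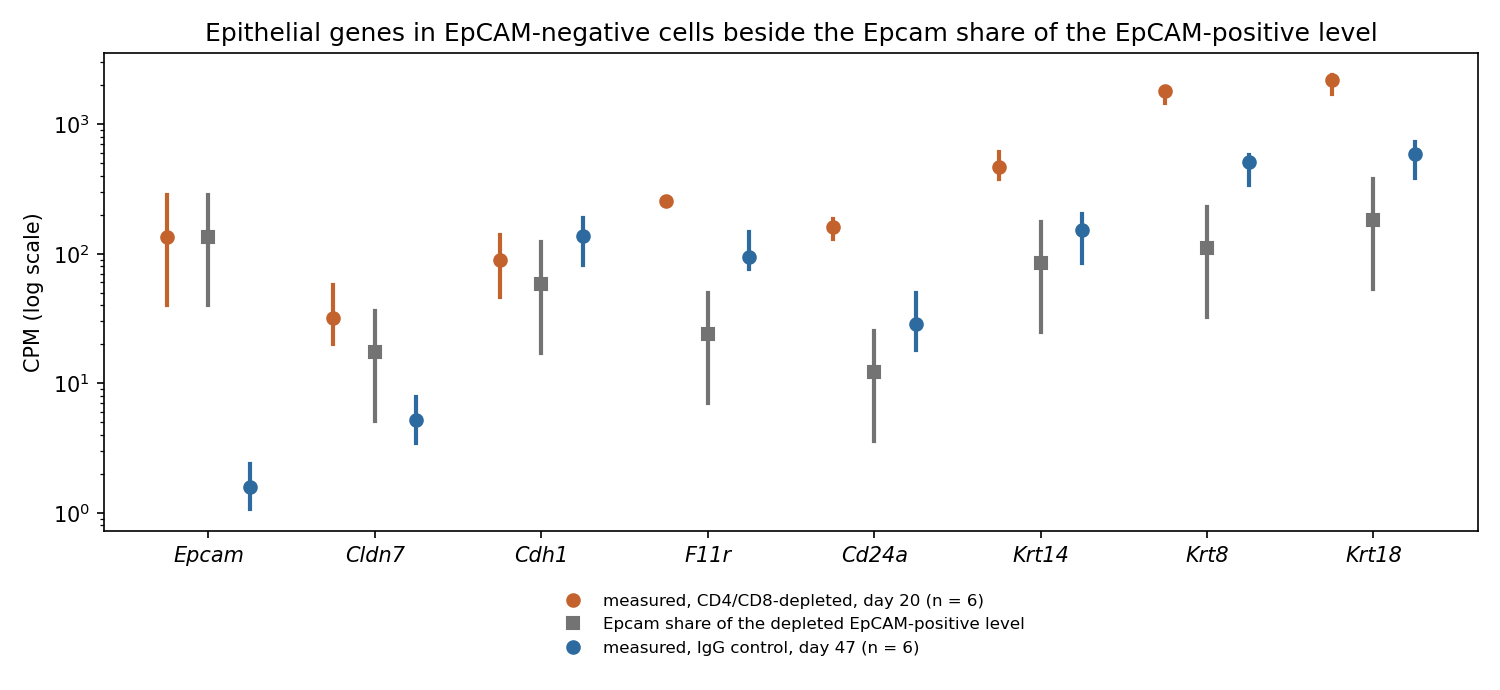
CPM on a log scale (vertical axis) of 8 epithelial genes in EpCAM-negative cells, as the median and range of 6 libraries. Orange is the level measured in depleted cells, grey the Epcam share of the depleted EpCAM-positive level and blue the level measured in control cells. The grey and orange ranges overlap for Cldn7 and Cdh1 and lie apart for F11r, Cd24a, Krt14, Krt8 and Krt18, and for Epcam they are equal by construction.

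Lineage genes of the mammary gland did not move as 1 group. Of 22 luminal genes 20 were tested, with 9 called lower, 4 higher and 7 not called (median −1.38, or −0.58 with 3 members at their bound). Cd24a, a surface protein of luminal cells, had a median of 160.1 CPM (range 131 to 186) in depleted libraries, against 28.8 CPM (18.03 to 49.8) in control libraries (log2 fold change 2.32 ± 0.17, edgeR adjusted p = 1.97e-11), whereas Tfap2c, a transcription factor of the luminal lineage, had a median of 10.5 CPM (range 3.93 to 19.5) in depleted libraries, against 87.2 CPM (21.3 to 190.5) in control libraries (log2 fold change −3.16 ± 0.39, edgeR adjusted p = 2.65e-07). Both had groups apart, and with the Epcam share taken off, the change of Tfap2c was −4.34. Other luminal genes that fell were the oestrogen receptor Esr1 (−1.22), the alveolar factor Elf5 (−3.38, or −7.29 with the Epcam share taken off) and the milk protein gene Csn3 (−4.25, or −4.94 with the Epcam share taken off). Of 17 basal genes, all tested, 8 were called lower, 5 higher (3 with the Epcam share taken off) and 4 were not called (median −0.15). Mylk, the kinase of smooth muscle myosin, had a median of 14.5 CPM (range 12.3 to 19.1) in depleted libraries, against 173 CPM (93.8 to 218) in control libraries (log2 fold change −3.44 ± 0.19, edgeR adjusted p = 1.85e-13), and Acta2 (−2.54) and Trp63 (−1.25) also fell. The basal genes that rose included the laminin chain Lama3 (1.30, or 0.30 and no longer called with the Epcam share taken off), the integrin Itgb4 (0.65), Cd44 (0.55) and Procr (0.99).

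Mesenchymal genes gave no common direction. Of 31, all tested, 10 were called higher, 11 lower and 10 were not called (median −0.08), and Pdgfrb, Postn, Fn1, Sparc and Mmp14 of the matrix account were among the 11. The intermediate filament Vim ran from 2531 to 3289.7 CPM (median 2895) in depleted and from 2063 to 2611 CPM (median 2409) in control libraries (log2 fold change 0.30 ± 0.11, edgeR adjusted p = 0.0263), with overlapping groups, and the call was lost without control library 4 or 5 or depleted library 2 or 5 (adjusted p up to 0.0657). Itga5, the fibronectin receptor subunit (1.19), Plaur, the urokinase receptor (2.35), and the receptor kinase Axl (0.42) were higher.

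Of 12 EMT transcription factors, all tested, 1 was called higher, 4 lower and 7 were not called (median 0.14). Zeb1 ran from 64.3 to 99.2 CPM (median 86.3) in depleted and from 69.3 to 94.1 CPM (median 85.5) in control libraries (log2 fold change 0.02 ± 0.21, edgeR adjusted p = 0.939). Zeb2 had a median of 61.8 CPM (range 54.9 to 82.3) in depleted libraries, against 41.5 CPM (38.8 to 66.4) in control libraries (log2 fold change 0.39 ± 0.25, edgeR adjusted p = 0.211). Neither was called, and their groups overlapped. Snai1 had a median of 19.4 CPM (range 15.3 to 25.5) in depleted libraries, against 35.1 CPM (30.3 to 44.9) in control libraries (log2 fold change −0.87 ± 0.14, edgeR adjusted p = 7.33e-06), and Tcf4 (−1.03), Sox9 (−0.53) and Twist1 (mean of 0.0739 CPM in depleted and 0.462 CPM in control libraries) were called lower as well. Snai2 had a median of 4.08 CPM (range 2.20 to 5.98) in depleted libraries, against 1.73 CPM (1.34 to 4.65) in control libraries (log2 fold change 0.76 ± 0.29, edgeR adjusted p = 0.0326), and its call was lost without control library 1, 2, 3 or 5 or depleted library 2, 3 or 6 (adjusted p up to 0.0906). The count of factors called higher was 0 in 6 of these 7 cases, 1 without control library 3 and 2 without control library 6.

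Ligands through which tumour cells engage T cells went both ways. Of 28 listed 22 were tested, and 8 were called higher, 7 lower and 7 were not called (median −0.01). Lgals9, which encodes galectin-9, ran from 33.6 to 55.3 CPM (median 39.8) in depleted and from 158 to 226 CPM (median 188) in control libraries (log2 fold change −2.15 ± 0.13, edgeR adjusted p = 1.12e-12). The inhibitory ligand Vtcn1 (B7-H4) had a median of 4.66 CPM (range 0.829 to 7.90) in depleted libraries, against 33.5 CPM (19.1 to 79.02) in control libraries (log2 fold change −3.14 ± 0.34, edgeR adjusted p = 3.45e-08). Nt5e, which encodes the adenosine-producing enzyme CD73, had a median of 1419 CPM (range 1206 to 1708) in depleted libraries, against 957 CPM (797 to 1153) in control libraries (log2 fold change 0.58 ± 0.09, edgeR adjusted p = 6.52e-06). The groups did not overlap for any of these 3. The Epcam share came to 0.718 to 5.09 CPM of Vtcn1 in depleted libraries, which overlaps its measured range, and with it taken off the change was −4.20. The arginine-degrading enzyme Arg1 (2.47), the co-stimulatory ligand Tnfsf9 (1.47) and the nectin Nectin3 (1.40) were higher, and Vsir (−0.81) and Tnfrsf14 (−1.42) were lower. Btla, the receptor that binds TNFRSF14 and is known from lymphocytes, had 13 counts over the depleted and 30664 over the control libraries, a CPM ratio of control over depleted of 1542 (95% counting interval 902 to 2897). It ran from 95.4 to 254 CPM in control libraries and stayed at or under 0.211 CPM in depleted libraries, while Cd3e, a T cell marker, had 0 and 1 counts. The T cell markers summed to 7.20 to 18.5 CPM in control and 1.88 to 3.05 CPM in depleted libraries. Ptprc, the marker of CD45, had 11 counts over the control and 587 over the depleted libraries. In EpCAM-positive cells Btla ran from 93.9 to 200 CPM in control and from 0.0557 to 2.82 CPM in depleted libraries. B and plasma cell markers summed to 0.4 to 13.8 CPM in control and 0 to 0.684 CPM in depleted libraries. What part lymphocytes had in the Btla values was not tested. The fitted log2 value of Btla was −10.55, or −11.76 with the Epcam share taken off.

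Ligands of NK cells, 14 listed and 9 tested, had 4 called higher, 2 lower and 3 not called (median 0.80). The stress ligands Ulbp1 (1.80), Raet1d, Raet1e and the nectin Pvr (0.80) were the 4, and B2m and Nectin2 (−0.41) the 2. Genes of death receptors and of resistance to cytotoxic granules, all 27 tested, had 7 called higher, 7 lower and 13 not called (median 0.09). Among them the death receptors Fas (−0.73) and Tnfrsf1a (−0.76) and the granzyme B inhibitor Serpinb9 (−0.56) were lower, and Tnfrsf10b (0.41), Casp8 (0.40) and Bax (0.57) were higher.

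Chemokines, 26 listed and 22 tested, had 7 called higher, 7 lower and 8 not called (median −0.70, or −0.23 with 4 members at their bound). Cx3cl1, or fractalkine, which attracts CX3CR1-bearing lymphocytes and monocytes, ran from 258 to 444 CPM (median 327) in depleted and from 2086 to 3339.8 CPM (median 2515) in control libraries (log2 fold change −2.96 ± 0.18, edgeR adjusted p = 1.14e-12). Every depleted library was under every control library, with a mean 7.79-fold lower. The neutrophil chemokine Cxcl3 had a median of 10.4 CPM (range 5.57 to 24.4) in depleted libraries, against 0.943 CPM (0.379 to 3.19) in control libraries (log2 fold change 3.26 ± 0.49, edgeR adjusted p = 5.28e-06), again without overlap. Ccl3 (2.43) and Ccl9 (1.21), which macrophages also make, were higher, and Cxcl1 (−0.93) and Cxcl14 (−1.94) were lower. Ccl2 (−1.54) and Cxcl12 (−0.20) had no call.

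Growth factors of myeloid cells and interleukins, all 23 tested, had 11 called higher, 6 lower and 6 not called (median 0.38, or 0.31 with 1 member at its bound). Csf2, the granulocyte-macrophage factor GM-CSF, ran from 19.4 to 95.4 CPM (median 35.02) in depleted and from 0.923 to 8.62 CPM (median 5.16) in control libraries (log2 fold change 3.35 ± 0.48, edgeR adjusted p = 2.82e-06). Il33, an alarmin of stromal and epithelial cells, ran from 35.9 to 66.7 CPM (median 42.3) in depleted and from 423 to 609.9 CPM (median 516) in control libraries (log2 fold change −3.48 ± 0.20, edgeR adjusted p = 2.95e-13). These 2 changed in opposite directions, each with groups apart. Il1b had a median of 11.5 CPM (range 7.68 to 32.2) in depleted libraries, against 0.166 CPM (0 to 1.36) in control libraries (log2 fold change 5.31 ± 0.80, edgeR adjusted p = 4.57e-06, or 6.51 without control library 3), and Il1a (4.12) and Csf3 (1.82) were higher too. Csf1, the macrophage growth factor, had a median of 492 CPM (range 379 to 546) in depleted libraries, against 388 CPM (283 to 530.0) in control libraries (log2 fold change 0.26 ± 0.14, edgeR adjusted p = 0.149), with overlapping groups, and it passed only without control library 5 (0.35, adjusted p = 0.0465). Il1b and Il1a are also made by macrophages and neutrophils, whose markers were higher in depleted libraries by the sums given above, and their part was not tested.

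NF-kB target genes, all 24 tested, had 11 called lower, 6 higher and 7 not called (median −0.55, or −0.34 with 2 members at their bound). Vcam1, an adhesion molecule for leukocytes, ran from 1.39 to 3.26 CPM (median 2.36) in depleted and from 44.96 to 78.4 CPM (median 53.9) in control libraries (log2 fold change −4.61 ± 0.34, edgeR adjusted p = 3.07e-11). Lcn2, an iron-binding acute-phase protein, had a median of 31.4 CPM (range 9.64 to 83.95) in depleted libraries, against 288 CPM (173 to 840.1) in control libraries (log2 fold change −3.29 ± 0.41, edgeR adjusted p = 3.03e-07). Both had groups apart. The Epcam share came to 9.54 to 67.7 CPM (median 32.4) of Lcn2 in depleted libraries, a range that overlaps the measured one. Its median was above the measured median, so little or no Lcn2 was left in some libraries with the share taken off. The fitted change of Lcn2 was then −6.11, which is not a measured size of the fall. The feedback inhibitors Nfkbia (−1.21) and Tnfaip3 (−1.36) fell, while the subunits Nfkb1 (0.34), Nfkb2 (0.76) and Relb (0.32) rose.

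Complement genes, 22 listed and 16 tested, had 8 called higher, 5 lower and 3 not called (median 0.63). C1ra, a protease of the classical pathway, had a median of 18.3 CPM (range 11.9 to 20.7) in depleted libraries, against 87.9 CPM (84.3 to 122) in control libraries (log2 fold change −2.41 ± 0.16, edgeR adjusted p = 4.52e-12), and C1s1 (−2.79), C3 (−0.78) and Clu (−1.18, or −1.92 with the Epcam share taken off) were lower with it. C1qa, a chain of the C1q molecule made by macrophages, had a median of 8.21 CPM (range 6.47 to 20.4) in depleted libraries, against 0.282 CPM (0.241 to 0.872) in control libraries (log2 fold change 4.53 ± 0.56, edgeR adjusted p = 3.59e-07), and its partner chains C1qb (4.21) and C1qc (4.09) moved alike. The C1q chains stand in the macrophage list as well, as do Lyz2, which had a median of 67.2 CPM (range 36.2 to 147) in depleted libraries, against 2.86 CPM (1.26 to 4.56) in control libraries (log2 fold change 4.70 ± 0.57, edgeR adjusted p = 1.68e-07), and the receptor Csf1r, which had a median of 14.6 CPM (range 12.3 to 26.7) in depleted libraries, against 4.43 CPM (3.48 to 8.14) in control libraries (log2 fold change 1.81 ± 0.28, edgeR adjusted p = 8.31e-06). Macrophage genes without a call included Cd68 (−0.05), Cd14 (0.44), Fcer1g (−0.53), Trem2 (−0.37) and Aif1 (1.35). What part macrophages had in the complement values was not tested.

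Few mitotic genes were called. Of 30 G2/M genes, all tested, 4 were called lower, 0 higher and 26 were not called (median −0.34), against 23.2% of all genes called lower. The 4 were the mitotic kinase Plk1 (−0.72), the anaphase activator Cdc20 (−0.52), the phosphatase Cdc25c (−0.58) and the kinesin Kif20a, which had a median of 68.6 CPM (range 59.5 to 82.9) in depleted libraries, against 100.5 CPM (78.8 to 129) in control libraries (log2 fold change −0.54 ± 0.17, edgeR adjusted p = 0.0129). Without control library 1 or 3 or depleted library 3, 2 were left. Mki67, the proliferation marker, ran from 31.2 to 59.5 CPM (median 48.2) in depleted and from 45.8 to 104 CPM (median 57.4) in control libraries (log2 fold change −0.53 ± 0.24, edgeR adjusted p = 0.0729), with groups that overlapped, and it passed without control library 6 (−0.62, adjusted p = 0.044). Of 30 replication genes 5 were called lower, 2 higher (E2f2, 1.04, and Pold1, 0.43) and 23 were not called (median −0.12). Of these 5, Tyms (−0.55), Rpa2 (−0.47), E2f1 (−0.35), Ccne1 (−0.59, not called with the Epcam share taken off) and Mcm5 (−0.44), 2 or 3 were left without control library 1, 2 or 3 or depleted library 1, 3, 4 or 5.

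Targets of p53 and inhibitors of the cell cycle, 24 listed and 23 tested, had 12 called higher, 6 lower and 5 not called (median 0.47). Mdm2, the ubiquitin ligase that p53 induces against itself, ran from 338 to 484 CPM (median 417) in depleted and from 145 to 204 CPM (median 171) in control libraries (log2 fold change 1.25 ± 0.12, edgeR adjusted p = 2.16e-09). Cdkn1a, the cyclin-dependent kinase inhibitor p21, had a median of 322 CPM (range 255 to 396) in depleted libraries, against 195 CPM (176 to 245) in control libraries (log2 fold change 0.70 ± 0.13, edgeR adjusted p = 7.96e-05). For both, every depleted library exceeded every control library. Ccng1 (0.99), Bax (0.57) and Zmat3 (1.17) were higher as well, and Trp53 was not called (0.16). Rb1, the retinoblastoma gene, had a median of 44.1 CPM (range 29.6 to 54.3) in depleted libraries, against 136 CPM (128 to 179) in control libraries (log2 fold change −1.71 ± 0.16, edgeR adjusted p = 2.1e-09).

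Immediate-early genes, induced rapidly by growth factors and by the dissociation of tissue, had 4 of 29 tested members called higher, 9 lower and 16 not called (median −0.21). Fos had a median of 3829 CPM (range 2842 to 5285) in depleted libraries, against 4231 CPM (3678 to 6172) in control libraries (log2 fold change −0.21 ± 0.14, edgeR adjusted p = 0.245), and Jun had a median of 2212 CPM (range 1763 to 2685) in depleted libraries, against 1877 CPM (1591 to 2575) in control libraries (log2 fold change 0.18 ± 0.12, edgeR adjusted p = 0.238). Neither was called and their groups overlapped. Gadd45b (−1.96) and Socs3 (−0.90) fell, and Myc (0.87), Klf6 (0.86), Dusp5 (1.12) and Dusp2 (mean of 1.215 CPM in depleted and 0.104 CPM in control libraries) rose.

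Genes of sugar metabolism were more often higher than lower in depleted cells. Of 21 glycolysis genes, all tested, 12 were called higher, 3 lower and 6 were not called (median 0.25). Slc2a1, the glucose transporter GLUT1, ran from 496 to 618 CPM (median 605) in depleted and from 222 to 319 CPM (median 263) in control libraries (log2 fold change 1.13 ± 0.13, edgeR adjusted p = 1.19e-07). Hk2, the hexokinase that takes the first step, had a median of 82.3 CPM (range 47.2 to 113) in depleted libraries, against 19.3 CPM (15.1 to 31.3) in control libraries (log2 fold change 2.03 ± 0.23, edgeR adjusted p = 4.1e-08). Neither had overlapping groups, and Gpi1 (1.20), Pgk1 (0.88) and the lactate exporter Slc16a3 (1.94) rose with them. The 3 that fell were the regulatory enzyme Pfkfb3, which had a median of 2.26 CPM (range 1.95 to 3.38) in depleted libraries, against 28.8 CPM (20.6 to 62.1) in control libraries (log2 fold change −3.89 ± 0.40, edgeR adjusted p = 9.69e-09), the transporter Slc2a3 (−6.22) and Pfkm (−0.28). Hypoxia genes, all 19 tested, had 8 called higher, 3 lower and 8 not called (median 0.38). Pdk1 (1.08), Bnip3 (1.07) and Egln1 (0.92) were among the 8. Car12, a membrane carbonic anhydrase, ran from 2.62 to 5.38 CPM (median 4.46) in depleted and from 45.9 to 272 CPM (median 204) in control libraries (log2 fold change −5.42 ± 0.31, edgeR adjusted p = 2.87e-13), and the other two that fell were Adm (−1.52) and Hilpda (−1.02).

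Stress genes went both ways. Of 26 genes of the unfolded protein and amino acid responses, all tested, 13 were called higher, 5 lower and 8 were not called (median 0.30). Asns, the asparagine synthetase induced by ATF4, ran from 93.3 to 132 CPM (median 117) in depleted and from 1.72 to 15.5 CPM (median 5.55) in control libraries (log2 fold change 4.10 ± 0.34, edgeR adjusted p = 2.25e-10). The pseudokinase Trib3 had a median of 66.1 CPM (range 38.3 to 94) in depleted libraries, against 18.98 CPM (10.02 to 22.4) in control libraries (log2 fold change 1.90 ± 0.20, edgeR adjusted p = 1.66e-08). Both had groups apart, and other ATF4 targets such as Chac1 (2.75), Psat1 (0.94) and the cystine transporter Slc7a11 (mean of 1.95 CPM in depleted and 0.0304 CPM in control libraries) rose with Atf4 itself (0.57). The 5 that fell encode helpers of protein folding and its disposal in the endoplasmic reticulum: Sdf2l1 (−1.07), Pdia6 (−0.45), Pdia4 (−0.26), Dnajc3 (−0.54) and Herpud1 (−0.54). Hspa5, the main chaperone there, had a median of 2018 CPM (range 1766 to 2551) in depleted libraries, against 1992 CPM (1840.2 to 2417) in control libraries (log2 fold change 0.00 ± 0.09, edgeR adjusted p = 0.995), with groups that overlapped. Heat shock genes, all 15 tested, had 5 called higher, 4 lower and 6 not called (median 0.02). The small heat shock protein Cryab (−1.43), Bag3 (−0.79), Hspa1a (−0.68) and Hspa1b (−0.71) were lower, and Hspa1a and Hspa1b are near-identical and share reads. Of 24 redox genes, all tested, 7 were called higher, 8 lower and 9 were not called (median −0.09), with Gsr (1.24) and Txnrd1 (0.61) higher and Me1 (−1.61) and Gstm1 (−1.70) lower.

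Most genes of lipid synthesis were lower in depleted cells. Of 27 genes of cholesterol and fatty acid synthesis 26 were tested, and 16 were called lower, 0 higher (1 without control library 1) and 10 were not called (median −0.56). Elovl6, which lengthens fatty acids, ran from 18.2 to 26.99 CPM (median 20.5) in depleted and from 55.9 to 97.2 CPM (median 78.9) in control libraries (log2 fold change −1.85 ± 0.13, edgeR adjusted p = 1.89e-11). Srebf1, the transcription factor that drives fatty acid synthesis, ran from 95.6 to 108 CPM (median 96.96) in depleted and from 238 to 537 CPM (median 324) in control libraries (log2 fold change −1.78 ± 0.15, edgeR adjusted p = 6.39e-10). Neither had overlapping groups. The changes of Insig1 (−1.30), Fasn (−0.55) and Scd1 (−0.92) were smaller, and Hmgcs1 (−0.07) was not called. Of 13 mitochondrially encoded genes 7 were tested, with 4 lower (mt-Nd2, mt-Nd4, mt-Nd5 and mt-Nd6, from −0.57 to −0.42), 0 higher and 3 not called (median −0.43).

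Growth factor pathways came next. Of 14 ErbB receptors and ligands 13 were tested, with 5 called higher, 1 lower (2 without depleted library 5 or 6) and 7 not called (median 0.21). The ligand Areg ran from 273 to 742 CPM (median 409) in depleted and from 123 to 292 CPM (median 195) in control libraries (log2 fold change 1.21 ± 0.21, edgeR adjusted p = 3.46e-05), with groups that overlapped. Egfr, the receptor of amphiregulin, ran from 25.4 to 48.2 CPM (median 36.04) in depleted and from 110.3 to 165 CPM (median 132) in control libraries (log2 fold change −1.86 ± 0.14, edgeR adjusted p = 4.34e-11), and every depleted library was under every control library. The ligand Btc (1.87) and the receptor Erbb3 (2.92, or 1.70 with the Epcam share taken off) were higher with Areg.

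Of 30 Wnt pathway genes 23 were tested, with 10 called lower, 4 higher and 9 not called (median −0.91). Nkd2, an intracellular Wnt antagonist, ran from 8.42 to 44.8 CPM (median 25.5) in depleted and from 312 to 515 CPM (median 376) in control libraries (log2 fold change −3.89 ± 0.26, edgeR adjusted p = 3.79e-12, or −4.63 with the Epcam share taken off). The target gene Lgr5, a receptor of R-spondins, had 10 counts in depleted and 4101 in control libraries, a CPM ratio of control over depleted of 268 (95% counting interval 146 to 560). Axin2 (−3.30) and Lef1 (mean of 0.0828 CPM in depleted and 3.13 CPM in control libraries), commonly read as Wnt targets, fell too. The ligand Wnt7b ran from 536 to 642 CPM (median 592) in depleted and from 212 to 318 CPM (median 288) in control libraries (log2 fold change 1.09 ± 0.11, edgeR adjusted p = 4.11e-09), above every control library, and Notum (1.48), Wnt7a and Wnt10a were the other 3 that rose. Of 17 genes of the insulin-like growth factor axis, all tested, 7 were called lower, 3 higher and 7 were not called (median 0.06). The growth factor Igf1 ran from 0.199 to 1.42 CPM (median 0.911) in depleted and from 106 to 212 CPM (median 144) in control libraries (log2 fold change −7.62 ± 0.49, edgeR adjusted p = 2.37e-12). The binding protein Igfbp5 had 14 counts in depleted and 14605 in control libraries, a CPM ratio of control over depleted of 682 (95% counting interval 407 to 1248). Its fitted change of −9.43 was −8.77 without control library 4 and −10.14 without depleted library 4. Hmga2, a chromatin protein that induces the Igf2bp genes, had a median of 185 CPM (range 142 to 225) in depleted libraries, against 27.6 CPM (15.6 to 38) in control libraries (log2 fold change 2.76 ± 0.22, edgeR adjusted p = 1.4e-10), and it rose with Igf2bp2 (1.78) and Igf2bp1 (mean of 0.19 CPM in depleted and 0.00967 CPM in control libraries).

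Some of the largest changes stood outside these lists. Serpinb2, an inhibitor of plasminogen activators, had 2803 counts over the depleted and 0 over the control libraries, at least 234-fold higher against 3 counts per library. Klk6, a secreted serine protease, had 5384 counts in depleted and 10 in control libraries, a CPM ratio of 823 (95% counting interval 447 to 1718). Both genes were seen in every depleted library, at 14.4 to 33.4 CPM for Serpinb2 and 22.8 to 81.5 CPM for Klk6, whose fitted log2 value was 9.59, or 8.93 with the Epcam share taken off. In the other direction, Lbp, which encodes the lipopolysaccharide-binding protein, ran from 1.13 to 5.38 CPM (median 3.13) in depleted and from 1097 to 2689.9 CPM (median 1814) in control libraries (log2 fold change −9.12 ± 0.35, edgeR adjusted p = 3.37e-16, or −10.04 with the Epcam share taken off). Adamtsl2, a matrix protein that binds latent TGF-beta binding protein, had 0 counts in depleted and 5725 in control libraries, at least 222-fold lower against 3 counts per library, and was at 4.40 to 97.4 CPM in control libraries. Without control library 5 its fitted change was −11.97 in place of −12.75. Among the most abundant genes, Spp1, the secreted matrix protein osteopontin, ran from 30019 to 49252 CPM (median 43474) in depleted and from 56046 to 88969.8 CPM (median 75593) in control libraries (log2 fold change −0.86 ± 0.15, edgeR adjusted p = 3.68e-05), and Cst3, the protease inhibitor cystatin C, ran from 333 to 551 CPM (median 419) in depleted and from 7734 to 13264 CPM (median 9291) in control libraries (log2 fold change −4.53 ± 0.23, edgeR adjusted p = 3.58e-14). Neither had overlapping groups, and the mean of Cst3 was 23.2-fold lower in depleted cells.

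Many markers of further cell types were not tested because of low counts. Calls among the rest stand beside the 45.1% of all tested genes that were called. Endothelial markers summed to 35.6 to 64.8 CPM in depleted and 35.5 to 97.7 CPM in control libraries, with 3 of 15 tested higher (Cdh5, Kdr and Erg), 1 lower (Flt1, or 2 lower without control library 1 or 6 or depleted library 1) and 11 not called. Pericyte and smooth muscle markers had 2 of 9 tested higher (Notch3 and Des, or 1 without depleted library 5) and 2 lower, and they summed to 19.6 to 48.0 CPM in depleted and 581 to 1691 CPM in control libraries, the control sums being mostly Pdgfrb. Dendritic cell markers had 2 of 6 tested higher (Itgax and Clec10a) and 2 lower (Zbtb46 and Ccr7). They summed to 4.32 to 8.81 CPM (median 5.89) in depleted and 35.1 to 55.4 CPM (median 46.8) in control libraries, without overlap and in the opposite direction to the sums of macrophage and neutrophil markers, and Zbtb46 made up most of the control sum, with a mean of 3.91 CPM in depleted and 40.9 CPM in control libraries. Of NK cell markers 0 of 2 tested were called, and of B and plasma cell markers 1 of 4 was lower (Ighm). The B and plasma cell markers summed to 0 to 0.684 CPM (median 0.25) in depleted and 0.4 to 13.8 CPM (median 5.03) in control libraries. Of mast cell and basophil markers Mcpt8 alone was tested and was higher, of skeletal muscle markers 2 of 6 were higher (Acta1 and Mylpf, or 1 without control library 5 or 6), of Schwann cell markers 1 of 6 was higher (Mbp) and 2 lower (Ncmap and Cnp), and of adipocyte markers 0 of 2 were called (1 without depleted library 2). Mast cell and basophil markers summed to 1.53 to 4.65 CPM in depleted and 0 to 0.585 CPM in control libraries. Skeletal muscle markers summed to 19.7 to 30.1 CPM in depleted and 5.10 to 10.9 CPM in control libraries. Schwann cell markers summed to 63.9 to 84.7 CPM in depleted and 107 to 175 CPM in control libraries. Sums of NK cell and adipocyte markers overlapped between the groups. Genes named because a count was 5 or fewer were chosen after their values were seen.

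The same contrast in EpCAM-positive cells of these treatments called 6658 genes (40%), of which 2928 were higher (17.6% of those tested) and 3730 lower (22.4%). Genes called higher in both fractions numbered 1733, which is 47.6% of those higher in EpCAM-negative and 59.2% of those higher in EpCAM-positive cells. Those lower in both numbered 2377, or 61.5% and 63.7%. The difference of the 2 changes, EpCAM-negative minus EpCAM-positive, was tested in the same model and passed for 2999 genes (18%), of which 1553 had a positive value (9.33% of those tested) and 1446 a negative one (8.69%). Among them 144 genes were called higher in EpCAM-negative cells and lower in EpCAM-positive ones and 170 the other way round. All 314 genes called in opposite directions passed the test of the difference, which opposite calls in the same fit make nearly certain beforehand.

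Some class I genes fell further in EpCAM-negative cells. Of the 23 class I genes 10 had a negative difference that passed and 0 a positive one. H2-K1 changed by −2.26 in EpCAM-negative and by −0.97 in EpCAM-positive cells (difference −1.30 ± 0.24, adjusted p = 0.000304), and Tap1 by −1.85 and −0.86 (difference −0.99 ± 0.21, adjusted p = 0.00159). Of the interferon-gamma list 5 differences were positive and 0 negative, and Irf1, at −1.35 in EpCAM-negative cells and −1.50 in EpCAM-positive ones, had no difference that passed. Type I genes had 8 negative differences and 0 positive, with Usp18 at −3.66 in EpCAM-negative cells and −1.61 in EpCAM-positive ones (difference −2.06 ± 0.31, adjusted p = 3.52e-05). MHC class II had 6 positive differences and 1 negative, with Cd74 at 2.91 and −0.54 (difference 3.45 ± 0.74, adjusted p = 0.00158). The −0.54 of Cd74 in EpCAM-positive cells was not called (edgeR adjusted p = 0.428). Cd74 ran there from 23.7 to 60.7 CPM (median 48.7) in depleted and from 7.71 to 248 CPM (median 36.5) in control libraries.

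Cell cycle genes differed between the fractions. Of 30 G2/M genes, 24 were called higher in depleted EpCAM-positive cells (median 1.12) and 0 lower, and 23 of the differences passed with a negative value. Kif20a changed by −0.54 in EpCAM-negative and by 1.55 in EpCAM-positive cells (difference −2.09 ± 0.25, adjusted p = 1.34e-06). Immediate-early genes had 23 of 29 called lower in depleted EpCAM-positive cells, and 19 differences passed with a positive and 1 with a negative value, that of Fos being 0.98 ± 0.20, adjusted p = 0.00119. Of the epithelial list 19 differences were positive and 1 negative, and of keratins and desmosomal genes 15 and 1. Krt14 rose in EpCAM-negative cells (1.69) and fell in EpCAM-positive cells (−0.94, difference 2.63 ± 0.21, adjusted p = 3.77e-09). Epcam itself had a difference of 5.38 ± 0.43, adjusted p = 2.57e-09, and the part of its share in the differences of other epithelial genes was not tested.

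Matrix and protease genes included some of the largest contrasts between the fractions. Mmp3 fell in EpCAM-negative cells (−3.63) and rose in EpCAM-positive cells (1.15, difference −4.78 ± 0.36, adjusted p = 1.29e-09). Col8a1 fell further in EpCAM-negative cells (−6.00 against −3.21, difference −2.79 ± 0.33, adjusted p = 1.34e-06), and Dcn less far (−7.67 against −9.98, difference 2.31 ± 0.58, adjusted p = 0.00611). The value of Dcn in EpCAM-positive cells rests on depleted libraries near the floor, at 0 to 5.96 CPM (median 1.46). Over the 32 matrix genes 7 differences were positive and 11 negative. The EMT factors Zeb1 and Snai2 were lower in depleted EpCAM-positive cells (−2.46 and −2.31), and their differences were 2.49 ± 0.31, adjusted p = 2.61e-06 and 3.07 ± 0.41, adjusted p = 6.07e-06. Of 12 EMT factors 3 had a positive difference that passed and 0 a negative one. Glycolysis and hypoxia genes had 9 positive differences each and 0 negative, with Slc2a1 at 1.13 in EpCAM-negative cells and −0.08 in EpCAM-positive ones (difference 1.21 ± 0.19, adjusted p = 4.03e-05).

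**Figure D5:**
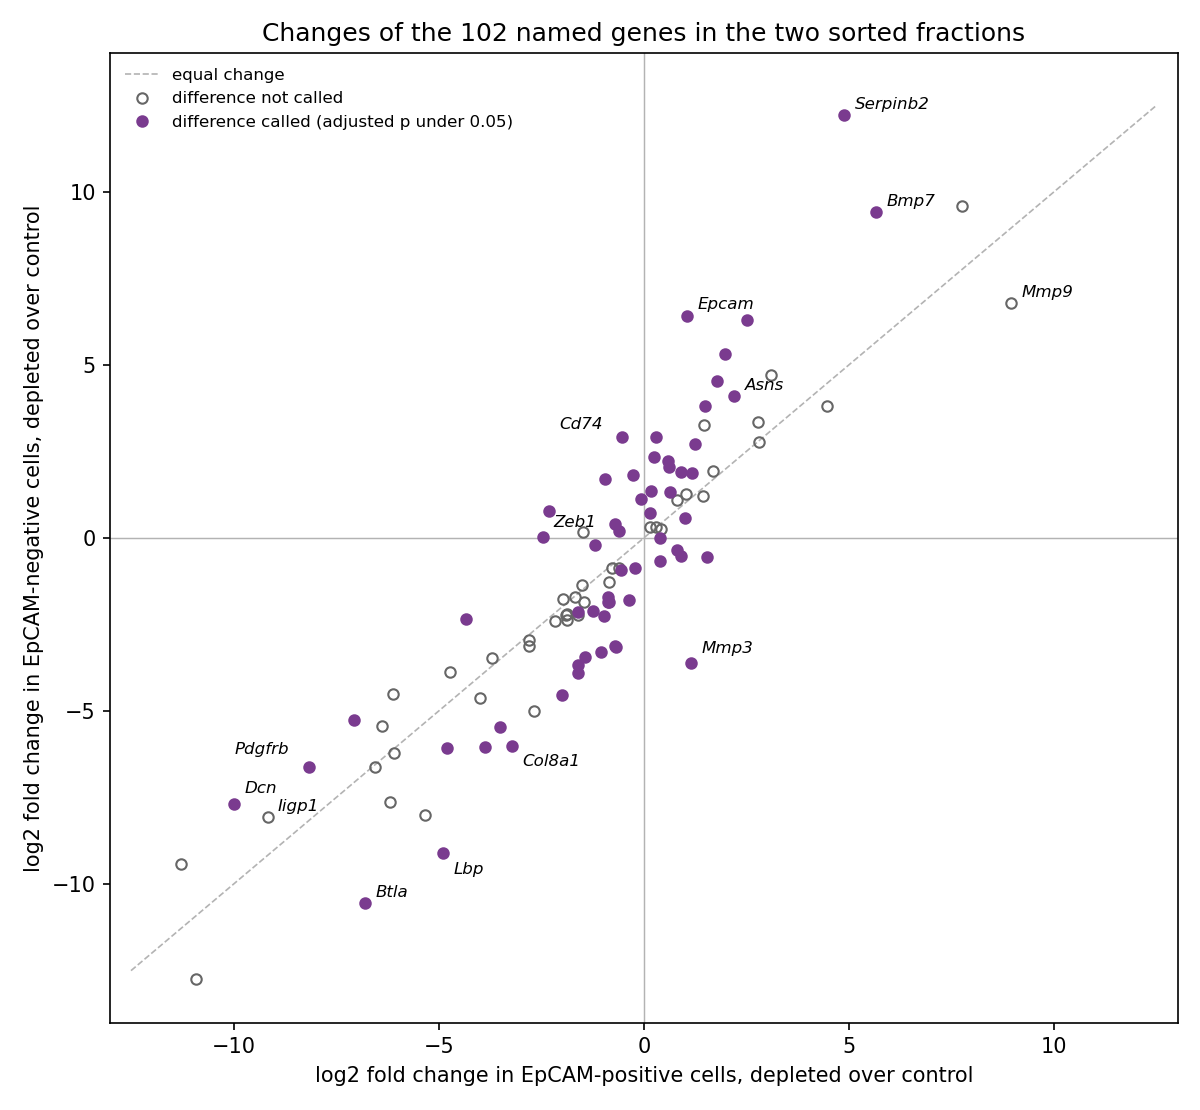
Log2 fold change of depleted over control cells in EpCAM-negative cells (vertical axis) and EpCAM-positive cells (horizontal axis) for the 102 named genes, with the dashed line marking equal change. Filled points are genes whose difference passed an adjusted p of 0.05. Mmp3 lies lower right of 0, having fallen in EpCAM-negative cells and risen in EpCAM-positive ones, Cd74 and Epcam lie above the line, and Iigp1 lies close to it.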

How the data were processed

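RNA of sorted cells was amplified with the SMARTer v4 kit from 0.1 to 1.0 ng by 10, 12 or 14 PCR cycles, made into Nextera XT libraries and sequenced as single reads of 50 bases, per the labels' protocols. The number of cycles of each library was not given in the sources used here. This kit carries no strand mark and no molecular identifiers. The authors deposited raw read counts per gene, made with STAR on mm9, per the submitters' processing notes. Counter, annotation and strandedness were not given in the sources used here, and reads of overlapping antisense genes cannot be separated. Another deposited table, of transformed values made with DESeq2 1.22.2 per the submitters' processing notes, was not used here. Of 47729 Ensembl genes, 47224 were matched to a symbol of GENCODE M21, and promoter sequences came from RefSeq on GRCm38.p6.

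From the deposited counts, edgeR 4.0.16 (R 4.3.3) kept features by its filter on counts per group and scaled libraries by TMM. The quasi-likelihood fit held 1 term for each group and took in all 26 libraries, which share the estimate of spread (median biological coefficient of variation 0.223). The contrast was depleted minus control, with Benjamini-Hochberg adjustment over 16637 features at 0.05, and the difference of contrasts between the fractions came from the same fit. Standard errors were derived from the test statistic. Counting intervals are exact at 95%, and they and the floor of 3 counts per library cover counting error only. The method was also run on simulated counts in which far fewer genes changed than were called here. That run cannot give its error rates in these data. Promoter windows were searched on both strands.

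The members, the 49 gene lists and the named genes were chosen with earlier results of these data known. Named genes followed a rule: the 12 largest changes in each direction with a mean of at least 10 CPM and groups apart, the 6 largest differences between the fractions in each direction, up to 4 members of a list with the smallest p, the 6 most abundant called and uncalled genes, and a set of sort, interferon, EMT and T cell genes given in any case. Not every gene that met it is named, and some are not reported here. List members given with a log2 value alone were added to illustrate a list. Alternatives were DESeq2 size factors and its Wald test (DESeq2 1.42.0), no filter, the 12 EpCAM-negative libraries alone, a replicate block, thinned counts, the Epcam share taken off and leaving out each library.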

Additional observations from a re-analysis of the deposited data

Results flagged for a closer look

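The change of depleted over control cells differed between EpCAM-negative and EpCAM-positive cells for 60 of the 102 named genes. The test was that of the difference itself in edgeR, with Benjamini-Hochberg adjustment. Over all 16637 tested genes 18% passed it. Some genes were named for the size of their change or difference, so the count is no result about the named genes. The values are the log2 change in EpCAM-negative minus that in EpCAM-positive cells. Among epithelial genes the difference was 5.38 for Epcam, 2.63 for Krt14, 2.09 for Cd24a, 1.45 for Cldn7, 1.19 for F11r and 0.71 for Krt8 (adjusted p 2.57e-09 to 0.00431). These rose more in EpCAM-negative cells, or fell in EpCAM-positive cells in the case of Krt14. Among genes of leukocytes and class II presentation it was 3.78 for Ptprc, 3.45 for Cd74, 3.34 for Il1b, 2.75 for C1qa, 2.61 for H2-Ab1, 2.30 for Ctss and 2.08 for Csf1r (adjusted p 0.000304 to 0.0175). Differences of EMT factors were 3.07 for Snai2, 2.49 for Zeb1 and 1.10 for Zeb2 (adjusted p 2.61e-06 to 0.0342), and those of TGF-beta and BMP genes were 3.75 for Bmp7, 1.66 for Ltbp1 and 0.69 for Smad3 (adjusted p 2.46e-06 to 0.00424).

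Matrix genes stood on both sides. Of the genes shown, 4 fell less far in EpCAM-negative cells, with 2.31 for Dcn, 2.02 for Timp3, 1.79 for Postn and 1.54 for Pdgfrb (adjusted p 4.97e-08 to 0.00611). Dcn and Pdgfrb were low in depleted EpCAM-positive libraries, at 0 to 5.96 CPM and 0.853 to 2.79 CPM. Negative values were −4.78 for Mmp3, −2.79 for Col8a1, −2.18 for Adamts1, −1.96 for Col1a1, −1.44 for Mmp14, −0.81 for Sparc and −0.66 for Spp1 (adjusted p 1.29e-09 to 0.0309), and of these Mmp3 was higher in depleted EpCAM-positive cells. Class I and interferon genes had −2.06 for Usp18, −1.30 for H2-K1, −1.27 for Rtp4, −0.99 for Tap1, −0.88 for B2m and −0.36 for Tapbp (adjusted p 3.52e-05 to 0.0439). Each of these 6 fell in both fractions and further in EpCAM-negative cells. Lineage genes had −2.48 for Tfap2c, −2.01 for Mylk and −1.05 for Cdh1 (adjusted p 2.38e-06 to 0.006), and secreted and surface proteins had −4.23 for Lbp, −3.75 for Btla, −2.53 for Cst3, −2.44 for Vtcn1, −2.23 for Lcn2, −0.54 for Lgals9 and −0.42 for Nt5e (adjusted p 1.59e-08 to 0.0354). For Nt5e both changes were positive and the smaller was in EpCAM-negative cells.

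Cell cycle genes had −2.09 for Kif20a and −1.43 for Mki67 (adjusted p 1.34e-06 to 0.0036). Immediate-early genes had 0.98 for Fos and 0.79 for Jun (adjusted p 0.00119 to 0.00195), and metabolic, stress and checkpoint genes had 1.89 for Asns, 1.42 for Hk2, 1.21 for Slc2a1, 0.99 for Trib3 and 0.56 for Cdkn1a (adjusted p 4.03e-05 to 0.033). The remaining values were 7.34 for Serpinb2, −0.96 for Elovl6, −2.29 for Nkd2, −0.40 for Hspa5 and −1.18 for RatActivatedNeu (adjusted p 1.51e-05 to 0.0297). The fitted value of Serpinb2 rests on control libraries without a count and is no bound.

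In a group of 6 libraries, the highest or lowest was set apart where its gap to the next was over Dixon's 95% critical value as a share of the group's range, which chance gives in about 1 of 20 groups. This held for 25 groups, with up to 2 examined for each of the 102 named genes, so some of the 25 would arise by chance alone. Depleted library 1 was the highest for Cd74 (121 CPM, next 65.3), Il1b (32.2 CPM, next 16.3), C1qa (20.4 CPM, next 11.4) and Cd4 (0.368 CPM, others 0) and the lowest for Ltbp1 (538 CPM, next 684). It also had the highest Epcam and the largest sum of leukocyte markers. Depleted library 2, with the lowest Epcam, was the highest for Hspa5 (2551 CPM, next 2046) and Adamts1 (31.9 CPM, next 17.4) and the lowest for Tap1 (13.3 CPM, next 19.4). Depleted library 4 was the highest for Ifit2 (10.04 CPM, next 6.71), depleted library 5 for Pfkfb3 (3.38 CPM, next 2.46) and depleted library 6 for Iigp1 (2.11 CPM, next 0.358) and Cxcl10 (0.301 CPM, next 0.0873).

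Control library 1 was the highest of its group for Tap1 (109 CPM, next 72.4), F11r (147 CPM, next 99.9), Cd74 (18.1 CPM, next 8.49), H2-Ab1 (11.5 CPM, next 4.50) and Ptprc (0.246 CPM, next 0.0345). Control library 2 was the highest for Bmp7 (0.974 CPM, next 0.354), control library 3 the highest for Il1b (1.36 CPM, next 0.338) and the lowest for Sparc (2386 CPM, next 2912). Control library 4 was the highest for Igfbp5 (224 CPM, next 84.01) and Rb1 (179 CPM, next 141). Control library 5 was the highest for Irf1 (338 CPM, next 224) and C1ra (122 CPM, next 92.3) and the lowest for Erbb2 (50.1 CPM, next 57.2). What set these libraries apart was not tested.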

How the results depend on the processing

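With a log2 fold change of at least 1 required as well, 1417 genes were higher and 1797 lower in depleted EpCAM-negative cells. Every other alternative left the counts of genes within 1.5 times of 3639 and 3862, and those of the difference between the fractions within 1.5 times of 1553 and 1446. Leaving out 1 library at a time gave 3382 to 3589 higher and 3622 to 3793 lower, and 1406 to 1576 and 1293 to 1468 for the difference. The smallest count higher otherwise came from the replicate block and the largest from DESeq2 (3768 higher, 3931 lower), and with the libraries thinned to the smallest total 3558 were higher and 3728 lower.

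Depleted and control libraries of equal number are not known to share more than that number. The correlations of their deviations from the group means were −0.03 to 0.05, and the best match was the own number for 1 of 6. Such low values cannot show that nothing else was shared. With the replicate block 3034 genes were higher and 3248 lower, and 1706 and 1699 differences passed with the library number shared by the fractions of a treatment as block. The labels do not say that this number marks a tumour, and the same correlations between the fractions were 0.05 to 0.17 in control (own number best for 6 of 6) and 0.02 to 0.05 in depleted cells (3 of 6). Among named genes the block ended the call of Snai2 (0.86, adjusted p = 0.121), made one for Zeb2 (0.44, adjusted p = 0.0477) and changed no other.

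Of the 102 named genes none changed sign in a call. Beyond the changes given with single genes, RatActivatedNeu lost its call with DESeq2 size factors (adjusted p = 0.0509) and with the 12 EpCAM-negative libraries alone (0.0624), and Snai2 (0.0788) did so in that fit too, in which Mki67 (0.0443) and Zeb2 (0.0442) passed. With no filter Snai2 (0.0619) and Vim (0.0794) lost theirs. The cause of these changes was not tested. Epcam has no value with its share taken off, since that leaves none by construction. List counts under all alternatives, the further fits of EpCAM-positive cells and the thinned difference were chosen after seeing the data. Depth limits genes of a few counts per library, for which ratios carry counting intervals.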
